A study of Mus musculus with 6 samples.

Results

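The pre-T-cell receptor, CD3 and T-cell receptor (TCR) constant chains are 8 genes: Ptcra, Cd3d, Cd3e, Cd3g, Cd247, Trac, Trbc1 and Trbc2. They were chosen by name, by their Entrez identifiers, from the 26332 genes of the count table, and all 8 passed the filter on low counts. RNA was measured in 6 libraries of mouse thymocytes of the double negative 3 (DN3) stage, 4 wild type (WT) and 2 from a Tcf7 knock-out (KO), all on the C57BL/6 background and each from 1 mouse. Tcf7 encodes the transcription factor TCF-1. The male mice were WT 4 and KO 1 and the other 4 were female; the labels used here give no ages. The sort took thymocytes with surface CD25 and without CD44, CD8, NK1.1, CD1d tetramer binding, CD3 or TCRβ, so the protein products of several of the genes described here were themselves part of the gate. Neither the allele nor the cells in which Tcf7 was removed are stated in the labels.

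A T cell reads antigen through a paired α and β chain that has almost no cytoplasmic tail of its own. The signal passes through the CD3 γ, δ and ε chains and the ζ chain, encoded by Cd3g, Cd3d, Cd3e and Cd247, whose tails carry the tyrosine motifs that the kinase LCK phosphorylates and ZAP-70 binds. At the DN3 stage the β chain gene is rearranged first, and the new β chain is tested in the pre-TCR, where the invariant chain encoded by Ptcra stands in for the α chain. The α chain locus normally rearranges later, at the double-positive stage. DN3 cells of WT mice are therefore known for Ptcra, CD3 and β chain transcripts with few α chain transcripts.

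The libraries held 13673860 to 41666797 counts, the KO libraries being the shallowest. Levels are given as CPM, the count of a gene scaled to a common library size. A count of 3 corresponded to between 0.0724 and 0.224 CPM, so that a gene listed at 0 may have been present below that level. Tcf7 itself was at 2325, 2269, 2265 and 2093 CPM across WT 1 to 4, whereas KO 1 had 1132 and KO 2 had 1020, a fall of 1.05 on the log2 scale (SE 0.09, edgeR adjusted p = 0.00127), so the KO libraries kept reads of the gene. Genes with a count numbered 15788 to 16013 in WT and 13294 and 14384 in KO, and mitochondrial counts made up 2.61 to 2.92% for WT, 0.893% for KO 1 and 1.78% for KO 2. Of 10 DN3 markers 1 was higher (Dtx1), 5 were lower and 4 were not called, and Ptcra and Cd3e are themselves on that list. All 10 had counts in every library, but Erg was nearly lost in KO. It went from a WT mean of 35.7 CPM to 0.460 in KO 1 and 0.746 in KO 2 (9 and 10 counts). Il2ra, which encodes CD25, ranged from 1751 to 2118 CPM over the WT libraries and was 1130 CPM in KO 1 and 707 CPM in KO 2. The KO libraries differed from each other more than the WT libraries did: the chi-square statistic per degree of freedom was 104 between them and 3.37 to 23.1 between WT pairs. Markers of B cells summed to 237 to 266 CPM for WT, 545 for KO 1 and 1464 for KO 2. Results that rest on 1 of the KO libraries are given with and without it.

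Among the 8 genes, 3 were higher in KO (Trac, Trbc2 and Cd247), 2 were lower (Ptcra and Cd3g) and 3 did not pass the test (Cd3d, Cd3e and Trbc1). A gene was called when its Benjamini-Hochberg adjusted p from edgeR's quasi-likelihood test, with sex in the model, was under 0.05 over all 13294 genes tested. Of all tested genes, 30.7% were called, 14.1% higher and 16.5% lower, which is the background for the count of 5 in 8. For 6 of the 8 genes neither KO library overlapped the WT values, both being above them in 3 and below them in 3; over all tested genes this share was 51.5% (22.9% above and 28.6% below). The summed level of the 8 genes was 3575 to 4017 CPM over the WT libraries, 4009 CPM for KO 1 and 4154 CPM for KO 2. In a model with an interaction of genotype and sex, 7 of the 8 genes were called, as were 54.7% of all tested genes. For most of the 8 genes the change against WT mice of the same sex thus differed between the 2 KO mice. The spread in that model comes from the female WT mice only, so the calls do not say how KO mice vary. limma-voom with a spread for each genotype kept the calls of Ptcra, Cd3g, Trac and Trbc2 and not that of Cd247.

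**Figure D1:**
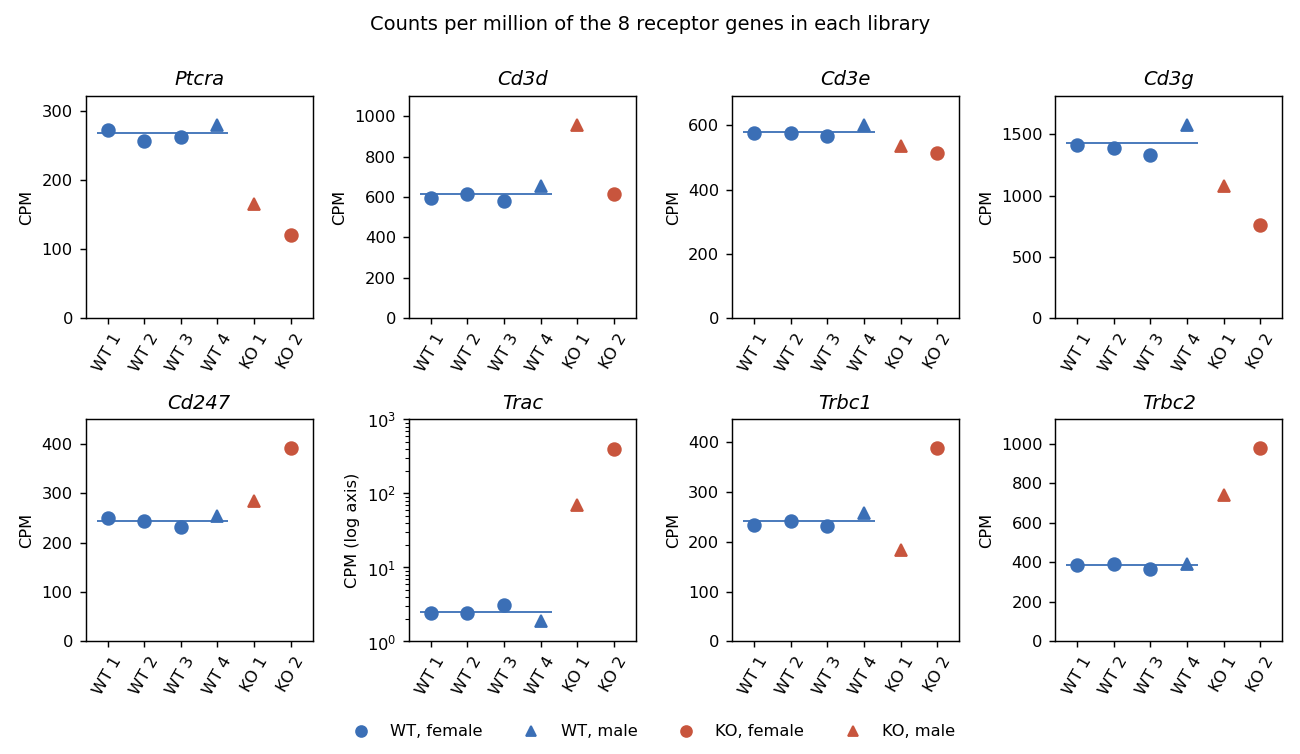
CPM of each gene (vertical axes, from 0; for Trac a log axis) in the 6 libraries, with WT in blue, KO in red, females as circles, males as triangles and the WT mean as a line. Both KO libraries lie below the WT range for Ptcra, Cd3g and Cd3e and above it for Trac, Trbc2 and Cd247, while for Trbc1 they lie on opposite sides of it and for Cd3d KO 2 lies inside it.

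Ptcra (Entrez 19208, chromosome 17, 46755663 to 46763712, GRCm38) encodes the surrogate α chain. Its promoter is shown because Ptcra fell and because its control in thymocytes is a textbook case of regulation by E proteins, which bind E-boxes, and by Notch, which acts through RBPJ. The 250 bases before the RefSeq start site (GRCm38.p6, chr17:46763713-46763962, minus strand) are given 5′ to 3′ with E-box matches (CANNTG) in capitals.
Ptcra: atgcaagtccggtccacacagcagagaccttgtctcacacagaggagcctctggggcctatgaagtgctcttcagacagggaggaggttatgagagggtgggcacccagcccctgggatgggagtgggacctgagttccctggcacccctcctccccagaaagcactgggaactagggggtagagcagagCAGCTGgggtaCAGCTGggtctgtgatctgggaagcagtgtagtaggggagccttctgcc
It held 2 E-boxes, both CAGCTG, from base -60 to -55 and from -49 to -44 of the start site. It also held 2 matches to an RBPJ core (TGGGAA or its reverse complement) at -84 to -79 and -32 to -27, and none to a TCF/LEF motif (CTTTGA or its reverse complement). Of 32851 promoter windows of the same length, 66.2% held an E-box, 21.6% the RBPJ core and 13.8% the TCF/LEF motif. A match of letters describes this window and is not a measured binding site.

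Ptcra was at 271, 257, 262 and 279 CPM across WT 1 to 4, whereas KO 1 had 165 and KO 2 had 120. All WT libraries lay within a narrow band, and both KO libraries were far below it. The fall was 0.98 on the log2 scale (SE 0.11, adjusted p = 0.00308), a level 1.97-fold lower, and the call held under all 16 alternatives (log2 change -1.13 to -0.77). In bulk RNA of sorted cells, fewer cells that carry a transcript and less of it per cell cannot be told apart. A lincRNA, Gm26904, lies across Ptcra on the opposite strand, and the library kit does not mark strand, so reads of the 2 could not be separated.

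Trac (Entrez 100101484, chromosome 14, 54220521 to 54224198) encodes the constant region of the α chain, the partner that replaces the Ptcra product. It was at 2.46, 2.46, 3.07 and 1.90 CPM across WT 1 to 4 (54 to 102 counts per library), whereas KO 1 had 69.5 and KO 2 had 394. Both KO libraries were far above every WT library, and KO 2 held 5.67 times as much as KO 1. The rise was 6.60 on the log2 scale (SE 0.42, adjusted p = 0.000675), and it was 5.18 without KO 2 and 7.24 without KO 1. The ratio of Ptcra to Trac within a library, as log2 of CPM plus 0.5, was 6.51 ± 0.28 (SD, n = 4) in WT, 1.24 in KO 1 and -1.71 in KO 2. Per kilobase of gene length, Trac was at 74.9 and Ptcra at 128 CPM in KO 1, and Trac at 425 and Ptcra at 93.9 CPM in KO 2, so Trac was the higher of the pair in KO 2 only. With 2 against 4 libraries there are 15 splits, and the exact two-sided permutation p of 0.0667 is the smallest this design can give. Both KO libraries were below WT for Ptcra and above WT for Trac, so their ratio had to separate the groups. The p of this ratio was thus fixed by those values and adds no support to them. Both KO libraries lay outside the WT range for 51.5% of all tested genes.

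The α joining segments were also higher in KO. The 51 Traj genes together had 4 to 15 counts in each WT library, 242 in KO 1 and 265 in KO 2, which is 0.167 to 0.527 CPM, 12.4 CPM and 19.8 CPM. The 116 Trav genes summed to 32.1 to 36.6 CPM for WT, 37.7 for KO 1 and 216 for KO 2. In KO 2 a single segment, Trav14d-3-dv8, took 66.1% of the Trav counts (Wilson 95% interval 64.4 to 67.9), whereas in WT the leading segment was Trav17 at 22.1 to 24.9%. In KO 1 it was Trav19 at 30.3% (interval 27.1 to 33.7). Wilson intervals cover counting error only, and V segments with near-identical copies may share or lose reads.

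Transcripts of the double-positive stage split, some rising with Trac and others falling, while most tested markers of mature T cells rose. Cd8a, a coreceptor chain whose protein was gated out, ranged from 0.703 to 3.72 CPM over the WT libraries and reached 66.9 CPM in KO 1 and 857 CPM in KO 2, with the same order of the KO libraries as Trac. Cd4 was at 0 in KO 1 and 12.8 CPM in KO 2. Of 9 double-positive markers tested, 3 were called higher and 3 lower. Their summed level was 3761 to 3920 CPM for WT, 1690 for KO 1 and 3996 for KO 2. Dntt, the most abundant of them, fell from a WT mean of 2859 CPM to 966 in KO 1 and 1545 in KO 2. Of 10 mature αβ T-cell markers tested, 8 were called higher and 1 lower, with sums of 730 to 896 CPM in WT and 1739 and 1898 in KO; Cd40lg was at 0 in every library and Foxp3 at 0 in KO 1. Of 7 B-cell markers tested (10 listed), 6 were higher, with the sums given above. Ighm, the most abundant of them, had a WT mean of 208 CPM, 522 CPM in KO 1 and 876 CPM in KO 2, and the defining markers Ms4a1 and Pax5 were at 0 in all WT libraries and in KO 1 and at 36.0 and 7.53 CPM in KO 2. Markers of myeloid and dendritic cells summed to 20.2 to 23.9 CPM for WT, 8.59 for KO 1 and 118 for KO 2, nearly all of the last from H2-Aa (107.7 CPM). Stromal markers summed to 256 to 274 CPM for WT, 190 for KO 1 and 188 for KO 2, nearly all from Epcam and Pecam1, which went opposite ways. Epcam fell from a WT mean of 152 CPM to 46.0 in KO 1 and 52.9 in KO 2. Pecam1 rose from 112 CPM to 138 and 134. Foxn1, Krt5 and Pdgfra were at 0 throughout. The part of these other cell types in the rise of Trac was not tested.

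Trbc1 and Trbc2 encode the alternative constant regions of the β chain (Entrez 100125262, chromosome 6, 41538219 to 41539665, and Entrez 100125263, chromosome 6, 41546730 to 41548181). A V segment joined to a D segment and to a J segment of the Trbj1 cluster is usually spliced to Trbc1, and one joined to the Trbj2 cluster to Trbc2. Their coding sequences are near copies, which limits how well reads can be assigned. In the GENCODE M21 transcripts each has 521 coding bases, of which 498 are identical (95.6%). The longest identical stretch is the first 259 bases. Bases 399 to 518, which hold 19 of the 23 differences, are shown as the stretch by which the genes can be told apart, with differing bases in capitals.
Trbc1: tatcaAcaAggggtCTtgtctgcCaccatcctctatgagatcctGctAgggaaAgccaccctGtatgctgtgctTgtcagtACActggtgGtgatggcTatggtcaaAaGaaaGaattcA
Trbc2: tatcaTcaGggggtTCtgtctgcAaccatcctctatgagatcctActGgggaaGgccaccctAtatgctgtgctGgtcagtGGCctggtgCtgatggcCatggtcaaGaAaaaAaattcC
How the authors counted reads that fit both genes is not given in the sources used here, so the split between Trbc1 and Trbc2 is less certain than their sum.

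Trbc2 was at 385, 392, 368 and 393 CPM across WT 1 to 4, whereas KO 1 had 739 and KO 2 had 976. It rose 2.27-fold (log2 1.18, SE 0.11, adjusted p = 0.00184) and was called under all 16 alternatives, with log2 changes from 0.90 without KO 2 to 1.38 in the 3 female WT mice against KO 2.

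Trbc1 was at 234, 243, 232 and 259 CPM across WT 1 to 4, whereas KO 1 had 183 and KO 2 had 388. The 2 KO libraries lay on opposite sides of the WT range. The gene was not called (log2 0.26, SE 0.26, adjusted p = 0.49), and its direction rested on the library: it was 0.73 without KO 1 (adjusted p = 5.78e-16) and -0.51 without KO 2 (adjusted p = 3.61e-10). Without KO 2 the fit with sex sets KO 1 against WT 4, and without KO 1 it sets KO 2 against WT 1 to 3. In both, 1 KO mouse stands alone and the spread comes from WT mice only, so such p-values say how far that mouse was from WT, not how KO mice vary.

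Within each library, Trbc2 took a larger share of the 2 constant genes' counts in KO than in WT. It took 62.1, 61.7, 61.3 and 60.2% in WT 1 to 4, 80.2% in KO 1 (Wilson 95% interval 79.6 to 80.7) and 71.6% in KO 2 (70.9 to 72.2). The KO mean was 14.5 percentage points higher, against a WT SD of 0.81 (n = 4), and the exact permutation p of 0.0667 is again the smallest possible. The J clusters, whose sequences were counted separately, shifted the same way. The Trbj2 share of Trbj counts was 48.3 to 53.5% for WT, 67.6% for KO 1 (66.2 to 68.9) and 76.6% for KO 2 (74.1 to 78.9). The 2 KO libraries stood above every WT library in both measures, but KO 1 was the higher for Trbc2 and KO 2 for Trbj2.

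The β chain V segments set each KO mouse apart from WT and from the other. The 24 Trbv genes summed to 345 to 366 CPM for WT, 961 for KO 1 and 1469 for KO 2. The leading segment was Trbv13-2 in all WT libraries, with 25.3 to 30.6% of Trbv counts. In KO 1 it was Trbv13-3 with 55.1% (Wilson 95% interval 54.4 to 55.9), a segment at 2.13 to 2.29% in WT and 0.913% in KO 2. In KO 2 it was Trbv13-1 with 48.3% (47.6 to 49.0), a segment at 3.56 to 5.21% in WT and 0.841% in KO 1. The shifts in the Trbc2 and Trbj2 shares thus stand in libraries where 1 V segment held about as many counts as all others, and the part of a few abundant rearrangements in those shares was not tested. These segments were singled out after their values were seen. The 2 Trbd genes together had 2.56 CPM in KO 1, below the WT values of 10.8 to 12.2 CPM, and 12.7 CPM in KO 2.

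**Figure D2:**
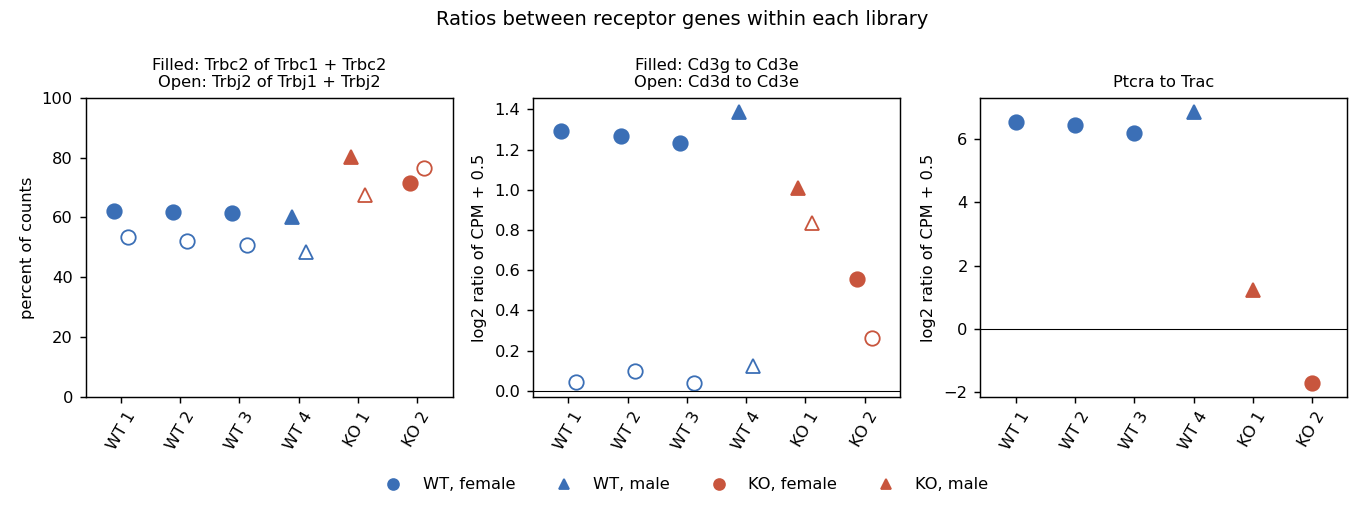
Ratios within each of the 6 libraries, with WT in blue, KO in red, females as circles and males as triangles: percent of counts from Trbc2 and from the Trbj2 cluster (left), log2 ratios of Cd3g and of Cd3d to Cd3e (middle) and of Ptcra to Trac (right), each from CPM plus 0.5. Both KO libraries lie outside the WT range in every panel, and the log2 ratio of Ptcra to Trac, which is not scaled by length, is below 0 in KO 2 only.

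Cd3g, Cd3d and Cd3e lie side by side on chromosome 9 (44969572 to 44980431, 44981769 to 44987052 and 44998735 to 45009663; Entrez 12502, 12500 and 12501). Their products form the γε and δε dimers of the αβ TCR. Cd3g and Cd3d are read outward from a shared stretch between them. Both promoters are shown because these neighbours did not move together. They are the 250 bases before the start site in the RefSeq promoter table, which for Cd3d lies just inside the gene span above (GRCm38.p6, Cd3g chr9:44980432-44980681, minus strand; Cd3d chr9:44981536-44981785, plus strand), with E-box and TCF/LEF matches in capitals.
Cd3g: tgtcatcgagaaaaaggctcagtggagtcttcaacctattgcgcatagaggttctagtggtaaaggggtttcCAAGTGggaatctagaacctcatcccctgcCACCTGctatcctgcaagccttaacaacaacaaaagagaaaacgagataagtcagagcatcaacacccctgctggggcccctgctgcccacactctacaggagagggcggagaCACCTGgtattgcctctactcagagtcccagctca
Cd3d: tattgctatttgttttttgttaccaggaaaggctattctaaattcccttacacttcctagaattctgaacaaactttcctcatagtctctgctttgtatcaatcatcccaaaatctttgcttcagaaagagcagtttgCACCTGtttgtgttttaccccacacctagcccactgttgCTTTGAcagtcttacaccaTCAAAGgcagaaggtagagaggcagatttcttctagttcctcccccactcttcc
The Cd3g window held 3 E-boxes, of which the one at -178 to -173 overlaps an RBPJ core match at -174 to -169, and no TCF/LEF match. The Cd3d window held 1 E-box (CACCTG, -112 to -107) and 2 TCF/LEF matches, CTTTGA at -73 to -68 and its reverse complement at -54 to -49. Among the 5 of the 8 genes with a promoter in the RefSeq table (Ptcra, Cd3d, Cd3e, Cd3g and Cd247), Cd3d was the only one with a TCF/LEF match. Of all 32851 windows, 13.8% held one. The Cd247 window (chr1:165788431-165788680, plus strand) lies well inside the span of that gene, so the bases before the span were not searched.

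Cd3g was at 1416, 1387, 1332 and 1575 CPM across WT 1 to 4, whereas KO 1 had 1078 and KO 2 had 756. Both KO libraries were below every WT library. It fell 1.67-fold (log2 -0.74, SE 0.09, adjusted p = 0.00515), and the log2 change lay between -0.86 and -0.56 over the alternatives.

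Cd3d was at 595, 616, 582 and 656 CPM across WT 1 to 4, whereas KO 1 had 956 and KO 2 had 616. KO 1 was above every WT library and KO 2 lay within their range. It was not called (log2 0.25, SE 0.12, adjusted p = 0.186). The change was 0.53 without KO 2 (adjusted p = 1.78e-11) and 0.06 without KO 1.

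Cd3e was at 577, 575, 567 and 601 CPM across WT 1 to 4, whereas KO 1 had 536 and KO 2 had 513. Both KO libraries were slightly below every WT library, and the gene was not called (log2 -0.16, SE 0.06, adjusted p = 0.0902). It passed under 5 of the 16 alternatives, all with a change of under 0.20 in size, and its change was the smallest of the 8 genes in the fit on 6 libraries. An antisense gene, Gm48719, and a gene on the same strand, Gm48720, overlap Cd3e.

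Cd3e, the shared partner of both dimers, serves as a reference within each library. The log2 ratio of Cd3g to Cd3e was 1.30 ± 0.07 (SD, n = 4) in WT, 1.01 in KO 1 and 0.56 in KO 2. That of Cd3d to Cd3e, a ratio added after the data were seen, was 0.08 ± 0.04 in WT, 0.83 in KO 1 and 0.26 in KO 2. Relative to Cd3e, Cd3g was thus lower and Cd3d higher in both KO libraries than in any WT library. The exact permutation p of each was 0.0667, the smallest possible. In KO 2, however, Cd3d itself was at 616 CPM, inside its WT range, while Cd3e was at 513 CPM, below its own. The higher ratio of Cd3d to Cd3e in KO 2 thus goes with the lower Cd3e level. The 2 KO libraries differed in which neighbour moved more: Cd3d in KO 1 and Cd3g in KO 2.

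Cd247 (Entrez 12503, chromosome 1, 165779952 to 165871153) encodes the ζ chain, which joins the complex last and carries most of its tyrosine motifs. It was at 251, 243, 231 and 253 CPM across WT 1 to 4, whereas KO 1 had 283 and KO 2 had 390. Both KO libraries were above every WT library, KO 1 only slightly. It rose 1.40-fold (log2 0.49, SE 0.13, adjusted p = 0.0401), a call near the threshold. The call was lost without WT 1, WT 2 or WT 3 (adjusted p = 0.119, 0.12 and 0.114) and with limma-voom weighted by genotype (adjusted p = 0.157). The change was 0.15 without KO 2 and 0.71 without KO 1. Fcer1g, which encodes a chain that can take the place of ζ, was at or under 0.961 CPM in every library and was not called. Its name was chosen after its values were seen. Pou2f1 and 4 small or noncoding genes on the opposite strand overlap the span of Cd247, as does Gm16565 on the same strand.

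**Figure D3:**
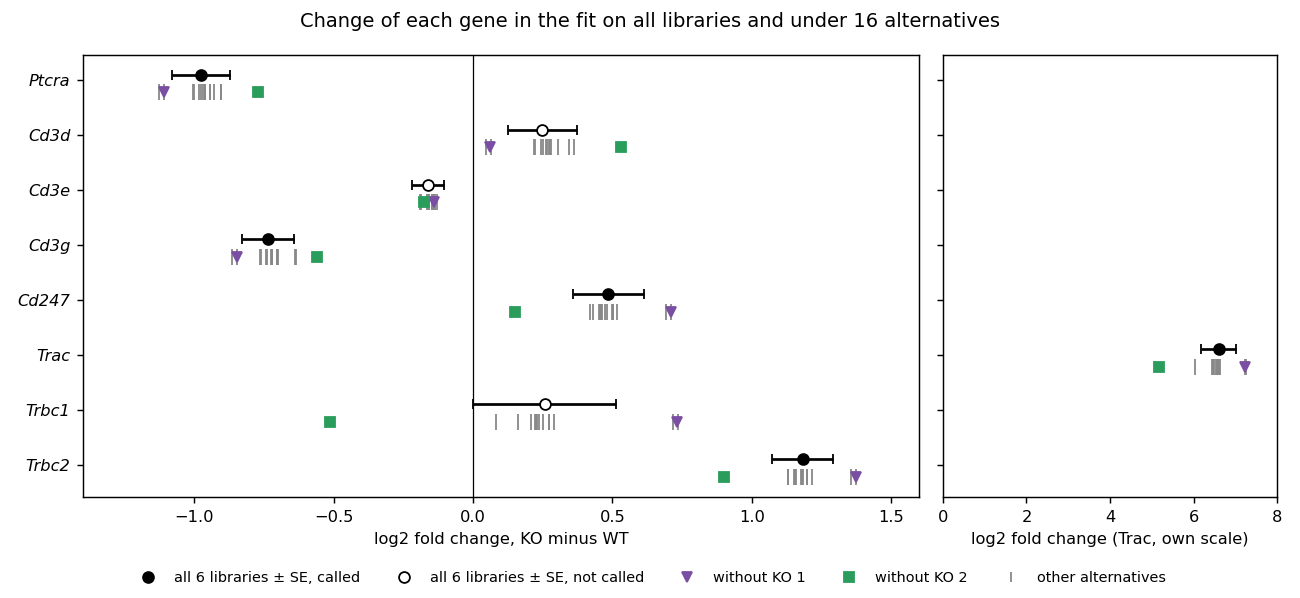
Log2 fold change of KO against WT (horizontal axes; Trac on its own scale) for each gene, with the SE from the fit on 6 libraries as bars, filled where called, and the 16 alternatives as marks below. Trbc1 lies on the negative side without KO 2 and on the positive side without KO 1, whereas Ptcra, Cd3g, Trac and Trbc2 stay on one side throughout.

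The levels of all 8 genes were ordered after division by the gene length in the deposited table, as CPM per kilobase. In WT the order was Cd3g (1395 ± 102, SD, n = 4), Trbc2 (739 ± 22.5), Trbc1 (466 ± 23.7), Cd3d (460 ± 24.3), Cd3e (404 ± 10.3), Ptcra (208 ± 7.80), Cd247 (53.1 ± 2.16) and Trac (2.67 ± 0.515). Trbc1 and Cd3d did not differ beyond their spread, and the other neighbours in this order did. In KO 1 the order was led by Trbc2 (1422) and Cd3g (1053), followed by Cd3d (719), Cd3e (373), Trbc1 (353), Ptcra (128), Trac (74.9) and Cd247 (61.6). In KO 2 it ran from Trbc2 (1877) over Trbc1 (748), Cd3g (739), Cd3d (463), Trac (425), Cd3e (357) and Ptcra (93.9) to Cd247 (84.8). Trbc2 thus led in both KO libraries in place of Cd3g, and Trac passed from the last place to above Cd247 in both and above Ptcra and Cd3e in KO 2. The lengths of Trbc1 and Trbc2 in the table, 519 and 520 bases, are about those of the coding part, so their levels per kilobase are less comparable with the rest.

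The other genes of the receptor pathway were read from lists by role. Of 13 genes for assembly and turnover of the receptor, 2 were higher, 1 lower and 10 not called, with a median log2 change of -0.10 against -0.04 over all tested genes. Sla, an adaptor that promotes the breakdown of the receptor in thymocytes, rose from a WT mean of 107 CPM to 269 in KO 1 and 367 in KO 2, and Tespa1 rose 1.25-fold. Cblb, a ubiquitin ligase that restrains T-cell activation, fell from 244 to 128 and 97.5 CPM.

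Among 27 proximal kinases and adaptors, 12 were higher, 3 lower and 12 not called, with a median log2 change of 0.31. Zap70, the kinase that binds the phosphorylated CD3 and ζ tails, rose from 75.7 CPM in WT to 424 and 323 CPM (log2 2.26, SE 0.11, adjusted p = 0.000324). Rasgrp1, which activates Ras below the receptor, rose 2.90-fold. Syk, the relative of Zap70 used by the pre-TCR, fell from 100.4 to 67.5 and 61.1 CPM. Pag1, an adaptor for the inhibitory kinase CSK, fell 1.65-fold, and Lck, which phosphorylates the receptor tails, 1.19-fold.

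Of 24 tested regulators of receptor genes, 7 were higher and 8 lower. Id3, an inhibitor of E proteins, rose from 34.1 CPM in WT to 190 and 227 CPM, Ikzf3, of the Ikaros family, from 21.3 to 370 and 345 CPM, and Lef1, the relative of Tcf7, 3.53-fold. Hes1, a Notch target, fell from 243 to 76.6 and 86.4 CPM and Notch3 1.69-fold. Other Notch genes did not go the same way. Notch1 and Rbpj were not called, and Dtx1, from the DN3 marker list, rose from 241 to 921 and 807 CPM. The E-protein genes, chosen after their values were seen, split: Tcf3 fell 1.23-fold, Tcf4 fell 1.50-fold, and Tcf12 was not called (adjusted p = 0.052). Of 12 recombinase and end-joining genes 1 rose, the ligase Lig4 (1.98-fold), and 3 fell (Dntt, Prkdc and Hmgb1). Dntt, which adds bases at the joins, went from a WT mean of 2859 CPM to 966 CPM in KO 1 and 1545 CPM in KO 2.

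Of the 8 coreceptors and surface partners, 7 rose and none fell, and Cd4 was not called. Cd2 rose from 1.36 CPM in WT to 199 and 233 CPM, Cd8b1 from 4.70 to 86.5 and 473 CPM, and Cd5, whose level follows receptor signal strength, from 15.6 to 168 and 132 CPM. Among 18 tested genes of the response to the pre-TCR, 9 were higher (Cd2, Cd5, Id3 and Ikzf3 among them), 1 was lower (Egr1, from 65.2 to 31.3 and 39.1 CPM) and 8 were not called, with a median log2 change of 0.60. Bcl2a1d of this list and Zbtb7b of the regulators were not tested for low counts. The lists share genes, and their counts are read against the background of 14.1% higher and 16.5% lower.

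**Figure D4:**
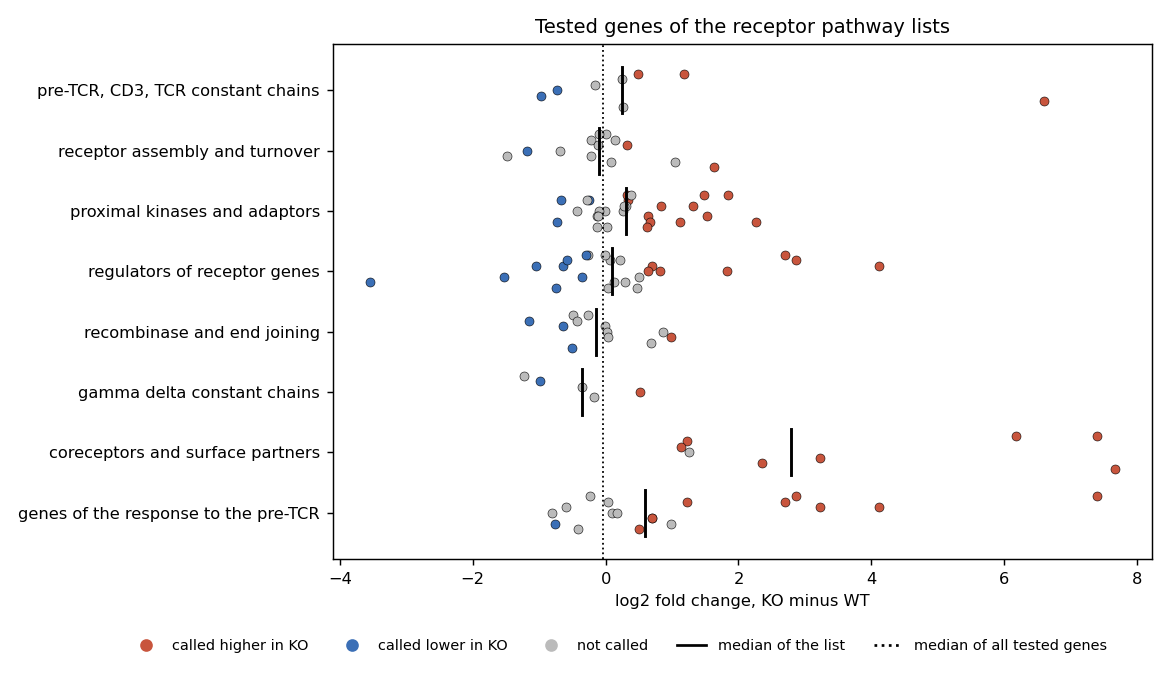
Log2 fold change of KO against WT (horizontal axis) for each tested gene of the 8 lists, red where called higher, blue where called lower and grey where not called, with the median of each list as a bar and that of all tested genes as a dotted line. Genes of the coreceptor list lie to the right of the dotted line, while the receptor chains spread to both sides.

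Of the 5 γδ constant genes, which encode the constant regions of the alternative γδ receptor, Trgc3 was higher and Trgc1 lower. Trgc1 fell from 415 CPM in WT to 227 and 201 CPM (log2 change -0.98). Trdc was not called, with a mean of 314 CPM over WT, 21.99 for KO 1 and 297 for KO 2. Trgc2 and Trgc4 were not called, and as near copies the Trgc genes may share reads. Of 8 γδ T-cell markers tested, 4 were higher and 1 lower, with sums of 1859 to 1915 CPM in WT and 2371 and 2198 in KO. The higher ones were Cd163l1, Maf, Blk and Sox13, none of them a constant gene, and the lower one was Trgc1. Cd163l1 rose from a WT mean of 40.1 CPM to 630 in KO 1 and 569 in KO 2. Zbtb16 was at 0 in both KO libraries. Of 4 tested markers of NK and innate lymphoid cells 2 were higher, and Ncr1 was at 0 in both KO libraries. The part of such cells in the values above was not tested.

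The genes with the most similar pattern were found by the root mean square difference of centred log2 CPM over the 6 libraries, among 11845 tested genes, as a description. For Ptcra they were Thra (difference 0.06), Fbxl15 and Uck2. For Trac they were Samhd1 (0.17), S1pr1 (0.22) and Lgals3 (0.34), each at or under 0.391 CPM in WT on average and higher in KO 2 than in KO 1. Samhd1 reached 16.2 and 115 CPM in KO 1 and KO 2. For Trbc2 they were Ablim1 (0.04), Rnf24 and Dhx58, and for Trbc1 Ccdc186 (0.03), Cox7a2l and B2m. For Cd3g they were Slc35e3, Elac1 and Miga2, for Cd3d Pmm2, Agap3 and Hnrnph1, for Cd3e Aspscr1, Srek1 and Zfp106, and for Cd247 Ppp1r13b, Gimap9 and Dnajc15.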

How the data were processed

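RNA of sorted DN3 thymocytes was amplified with a SMART-Seq v4 kit and read in pairs on a NextSeq, per the labels' protocols. The authors deposited unnormalized counts for Entrez genes; the submitters' processing notes name featureCounts and mm10. No aligner, version, strand or multi-mapping setting is given in the sources used here. The deposited table also lists a length per gene. Symbols and coordinates came from RefSeq (GRCm38.p6), which matched 25275 of 26332 identifiers, promoters from RefSeq and Trbc sequences from GENCODE M21.

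Counts were tested with edgeR 4.0.16 in R 4.3.3: filterByExpr by genotype (minimum 10), which kept 13294 genes, TMM scaling, and a robust quasi-likelihood test of KO against WT with sex as a term (3 residual degrees of freedom). The SE is the log2 change over the root of F. CPM use the TMM factors over library totals. Alternatives used DESeq2 1.42.0 and limma 3.58.1. The tests were tried on simulated counts with the same spread in WT and KO and no sex effect. In these data the KO libraries differed from each other more than the WT libraries did, which the simulation did not cover. The 8 genes, the lists and the tests were chosen with earlier results of these data known. All 8 genes are named; of each pathway list up to 3 called genes per direction with the smallest adjusted p are named, of marker lists the most abundant and those at 0, and for each of the 8 genes the 3 most alike. A gene that this rule names is not reported here. Replicates are mice, per the design text. Same-numbered mice are not paired by the labels.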

Additional observations from a re-analysis of the deposited data

Results flagged for a closer look

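In a model with an interaction of genotype and sex, the change in the male mice (KO 1 against WT 4) differed from that in the female mice (KO 2 against WT 1 to 3) for 7 of the 8 genes, where 54.7% of all tested genes did (edgeR, adjusted p under 0.05). With 1 KO mouse of each sex, sex and mouse cannot be told apart, and the 2 residual degrees of freedom come from the 3 female WT mice. As log2 differences, male minus female, the interaction was -2.03 for Trac (SE 0.25, adjusted p = 1.96e-08), -1.22 for Trbc1 (SE 0.07, adjusted p = 4.7e-16), -0.53 for Cd247 (adjusted p = 3.29e-07) and -0.44 for Trbc2 (adjusted p = 1.48e-06). It was 0.50 for Cd3d (adjusted p = 1.21e-07), 0.37 for Ptcra (adjusted p = 0.000165) and 0.32 for Cd3g (adjusted p = 7.07e-05). Relative to WT, Trac, Trbc1, Trbc2 and Cd247 were thus at a higher level in KO 2 than in KO 1. Ptcra and Cd3g were below WT in both KO mice, and less so in KO 1, while Cd3d was higher in KO 1 than in KO 2. Cd3e was not called (-0.01, adjusted p = 0.963).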

How the results depend on the processing

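Of the 8 genes, 3 were called higher and 2 lower with edgeR. Other scalings, filters and a fit without sex left these counts as they were; the median log2 change of all genes moved from -0.04 to at most -0.12, without the filter. With the replicate block in place of sex, 1 was called higher and 1 lower, and 748 genes in all against 4076; the calls of Cd3g (adjusted p = 0.142), Cd247 (0.363) and Trac (0.0745) were lost. That fit rests on 2 pairs with 1 residual degree of freedom, and same-numbered mice do not move together (correlations of deviations -0.14 and 0.03). All genes called numbered 1500 with limma-voom weighted per genotype (65.8% of them higher, against 46.1%) and 8524 with females only. Leaving out 1 library gave 1665 (without WT 1) to 9473 genes (without KO 2), 2 to 4 of the 8 genes higher and 2 to 4 lower (4 without KO 2). Trbc1 turned to -0.51 without KO 2 and was 0.73 without KO 1. Without WT 4, the sex term takes up KO 1, so that only KO 2 is compared. Leaving out 1 library, the difference between KO and WT ranged from 10.2 (without KO 1) to 18.8 percentage points (without KO 2) for the Trbc2 share, from -8.21 to -5.27 for the log2 ratio of Ptcra to Trac, from -0.74 to -0.29 for Cd3g to Cd3e and from 0.19 to 0.76 for Cd3d to Cd3e. The cause of these shifts was not tested. Trac rests on 54 to 102 counts per WT library.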
